A study of Mus musculus with 48 samples.

Results

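The comparison described here is that of fed p110αhep-/- mice (LKO) with fed p110αhep+/+ littermates (LWT), both on a control diet, in the liver transcriptome. Its members are the 6 LKO and 6 LWT arrays whose titles give the control diet and the fed state, 12 of the 48 arrays of the series, and every gene with a detected probe was compared. LKO mice carried floxed p110α alleles and 1 albumin-Cre transgene, which is active in hepatocytes, on a C57BL/6J background. LWT mice were Cre-negative littermates with the same floxed alleles, so that the transgene itself was present only in LKO mice, and the other liver cells of LKO mice kept the gene. All 12 mice were males that started the diet at 12 weeks of age, ate it for 12 weeks and were killed at ZT16, in the dark phase, with free access to food. Each array held RNA from the liver of 1 mouse, so that a lower signal from fewer cells of a type and from less RNA per cell cannot be told apart.

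p110α is the catalytic subunit of class IA phosphoinositide 3-kinase that couples insulin receptor substrates to the lipid PIP3 in hepatocytes. PIP3 recruits and activates AKT, which keeps the transcription factor FOXO1 out of the nucleus and promotes the processing of SREBP-1c. In the fed liver this pathway is known to silence genes such as those of glucose production and to raise genes of fatty acid and triglyceride synthesis.

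The question of the comparison was which hepatic transcripts depended on hepatocyte p110α in fed animals without an obesogenic diet. Levels are given as quantile-normalised log2 median signals of the brightest probe of a gene, on a scale where 1 unit is a doubling, and levels of different probes are not compared. Differences are LKO minus LWT on that log2 scale, estimated with limma over all 48 arrays and adjusted over all probes by the Benjamini-Hochberg method, so that p-values measure the spread between mice. Genes that met both thresholds, a fold change above 1.5 and an adjusted p no higher than 0.05, were called, and only these are said to have risen or fallen. Between 52.3% and 59.0% of spots were well above background on the 12 arrays, and 0 spots were saturated. Albumin mRNA, the defining hepatocyte transcript, lay between 18.82 and 18.95 in all 12 livers. Quantile normalisation gives the brightest probes nearly the same values on every array, so this is no check of hepatocyte content.

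A control mouse stood apart from its group. On the first principal component of 20480 genes, which held 39.4% of the variance, the 6 LKO mice lay between 12.6 and 25.1 and 5 of the 6 LWT mice between -30.7 and -15.0, whereas LWT replicate 2 lay at 1.81. The 2 genotypes differed on this component (exact permutation test, two-sided, p = 0.0021645, the smallest value that 6 against 6 mice allow; adjusted over 4 components, 0.00866). Over the 873 genes called without LWT replicate 2, this mouse lay nearer to the LKO mean in 59.5%. The other LWT mice did so in 3.34% to 20.6% of genes, each over the 658 to 819 genes called without that mouse. Its Igfbp1 level was 13.93, within the LKO range of 13.32 to 15.19, where the other LWT mice ranged from 9.46 to 12.48. Its Cidea level was 9.18, below the other LWT mice at 11.56 to 13.18 and above the LKO mice at 4.97 to 5.81. Its array also had the lowest weight (0.589) and the smallest share of spots above background (52.3%) of the 12. For some genes it lay outside both groups, as for the macrophage marker Timd4 at 8.75, where the LKO mice reached at most 7.96. The part of array quality in its position was not tested. It was kept, and the main counts are given also without it.

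**Figure D1:**
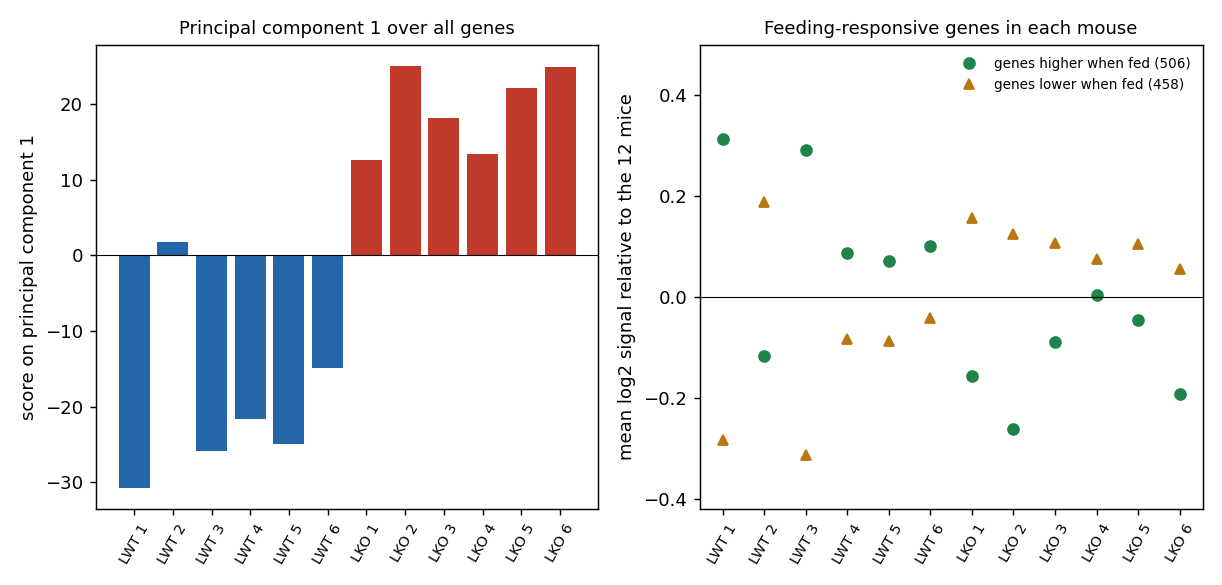
Bars give the score of each of the 12 mice on the first principal component (left), and points give the mean of 506 genes higher when fed and of 458 genes lower when fed in each mouse, as the log2 signal relative to the mean of the 12 mice (right). LWT replicate 2 scores 1.81, where the other LWT mice score -30.7 to -15.0 and the LKO mice 12.6 to 25.1.

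Loss of hepatocyte p110α was accompanied by higher levels of 314 genes and lower levels of 447 genes. Of 20485 genes tested, 761 were called (3.71%), 1.53% as higher and 2.18% as lower. By adjusted p alone 4405 genes passed (21.5%), 2239 higher and 2166 lower, so most differences that passed were smaller than 1.5-fold. The falls were larger than the rises: 157 genes fell and 61 rose by more than 2-fold, and 42 fell and 6 rose by more than 4-fold. The median difference of all genes was 0.018. All 761 differences had the same sign within each of the 2 washing batches. The arrays of LKO and LWT did not overlap for 1273 genes (6.21%), of which 235 fell and 110 rose. Without LWT replicate 2, 358 genes rose and 515 fell, of which 272 and 360 did not overlap between the groups, and 757 of the 761 calls were kept in the same direction.

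**Figure D2:**
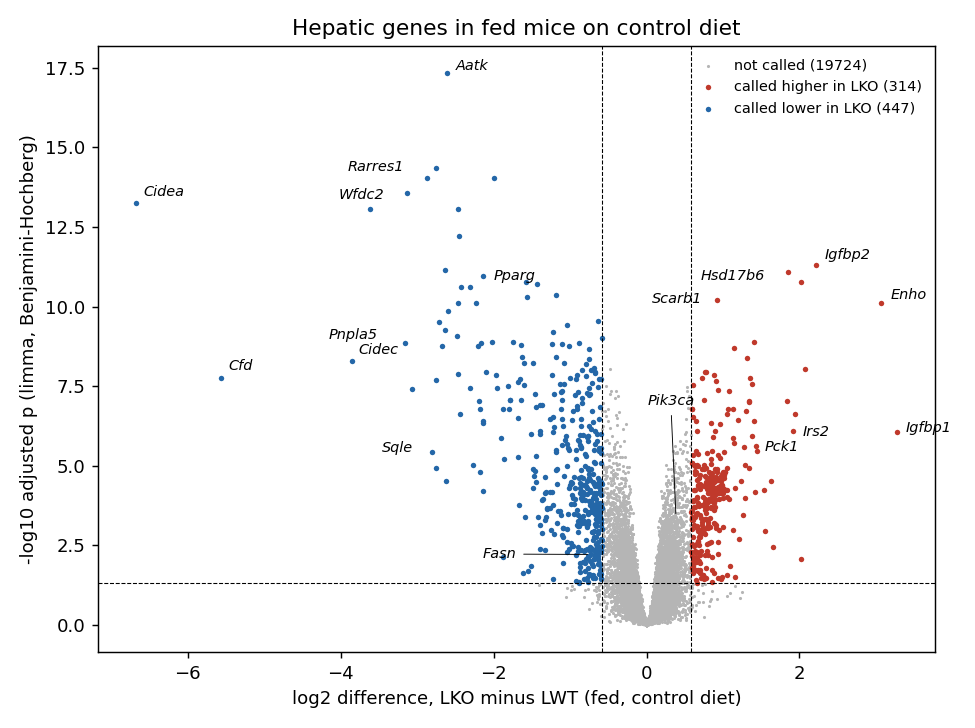
Each point is 1 of 20485 genes, with its log2 difference (LKO minus LWT) on the horizontal axis and minus log10 of its adjusted p on the vertical axis. Red points are the 314 genes called higher and blue points the 447 called lower, and dashed lines mark the thresholds. The falls reach further from 0 than the rises, to a measured -6.68 for Cidea, which is near background in LKO mice, against 3.27 for Igfbp1.

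Pik3ca, which encodes p110α itself, was measured by a single probe at chr3:32364747-32364806 (mm9). Its level ranged from 13.02 to 13.33 in LKO mice (median 13.26) and from 12.79 to 13.09 in LWT mice (median 12.87). The levels were thus higher in LKO mice, with a small overlap, by 0.39 ± 0.080 (SE; adjusted p = 0.000419), which is below the 1.5-fold threshold. The methods of the study give the excised part as a pair of exons, and no exon coordinates were used here to place the probe, so its signal is no check of the deletion and all directions take the genotype labels as given.

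Of the 14 PI3K subunit genes tested, 0 rose and 2 fell (2.18% of all genes fell). Pik3r1, which encodes the regulatory subunit p85α that binds and stabilises p110 proteins, ranged from 9.64 to 10.16 in LKO mice (median 10.02) and from 10.31 to 11.10 in LWT mice (median 10.83). The 2 groups did not overlap, and the difference was -0.76 ± 0.12 (adjusted p = 1.3e-05). Pik3r3, another regulatory subunit, differed by -0.60, but the fold change was not above 1.5 without LKO replicate 5 (-0.58), LWT replicate 1 (-0.56) or LWT replicate 5 (-0.53). Pik3cb, which encodes the other broadly expressed class IA catalytic subunit p110β, differed by -0.21 (adjusted p = 0.0938). The immune-cell catalytic subunits Pik3cd and Pik3cg differed by 0.03 and -0.01, and the class III subunit Pik3c3 by 0.05. Pik3c2g, a class II subunit of the liver, differed by -0.31 on its brightest probe and was called from the median over its probes (-0.83, adjusted p = 3.76e-07), which range from -0.91 to -0.31.

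Genes that FOXO1 activates and insulin represses were among the largest rises, and Igfbp1 rose most of all genes. The insulin response element of the Igfbp1 promoter is a textbook FOXO1 site, and the promoters of the FOXO1 target genes were therefore searched on both strands for CAAAACAA, for the FOXO site GTAAACA and for the E-box CACGTG. Promoters are the 250 bases before to 50 after the start in RefSeq (GRCm38.p6). The motif CAAAACAA was present in those of Igfbp1, Irs2 and Ccng2, 3 of 18 with a promoter (16.7%), against 2.51% of all 27025 promoters. GTAAACA was found in 1 of the 18 (Sesn1, 5.56%; 3.55% of all). The E-box was found in 4 of the 18 (22.2%; 7.24% of all). In the 12 largest rises without overlap between groups, 0 of 9 promoters held CAAAACAA and 0 of 9 held GTAAACA. In the 12 largest such falls, GTAAACA was found in 1 of 10 (Anxa8) and CAAAACAA in 0. The promoters of the called genes with CAAAACAA are shown with the motif in capitals, at chr11:7197537-7197836 on the plus strand for Igfbp1 and at chr8:11008880-11009179 on the minus strand for Irs2, where an E-box and the element on the opposite strand adjoin and are both capitalised.
Igfbp1: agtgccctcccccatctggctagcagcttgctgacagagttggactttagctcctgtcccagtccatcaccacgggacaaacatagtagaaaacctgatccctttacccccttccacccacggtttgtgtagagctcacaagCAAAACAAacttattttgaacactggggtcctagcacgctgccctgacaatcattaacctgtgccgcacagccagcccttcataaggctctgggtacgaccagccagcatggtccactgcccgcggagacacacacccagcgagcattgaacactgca
Irs2: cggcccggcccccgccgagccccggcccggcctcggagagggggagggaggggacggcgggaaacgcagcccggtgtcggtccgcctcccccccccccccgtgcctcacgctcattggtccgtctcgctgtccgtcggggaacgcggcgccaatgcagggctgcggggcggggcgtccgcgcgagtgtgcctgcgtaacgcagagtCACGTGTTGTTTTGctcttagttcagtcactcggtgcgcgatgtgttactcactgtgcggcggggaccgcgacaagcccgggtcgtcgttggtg
The element began at position -108 relative to the start of Igfbp1 and at -38 relative to that of Irs2. A match is a description of these letters, not evidence of binding.

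Igfbp1, a secreted IGF-binding protein, ranged from 13.32 to 15.19 in LKO mice (median 14.42) and from 9.46 to 13.93 in LWT mice (median 11.21). The overlap came from LWT replicate 2, and the difference was 3.27 ± 0.46, or 9.68-fold (adjusted p = 8.48e-07). Irs2, an adaptor that carries the insulin receptor signal to PI3K, ranged from 10.23 to 11.58 in LKO mice and from 8.42 to 11.17 in LWT mice, a rise of 1.92 ± 0.27. Pck1, the phosphoenolpyruvate carboxykinase of gluconeogenesis, ranged from 15.89 to 16.77 in LKO mice and from 13.94 to 16.49 in LWT mice, a rise of 1.43 ± 0.21. Enho, which encodes the secreted peptide adropin, ranged from 12.89 to 13.88 in LKO mice (median 13.34) and from 9.66 to 11.79 in LWT mice (median 10.27), with no overlap and a rise of 3.07 ± 0.29 (adjusted p = 7.58e-11). Without LWT replicate 2 the differences were 3.58 for Igfbp1, 2.16 for Irs2, 1.62 for Pck1 and 3.24 for Enho.

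These 4 were the called members among the 23 FOXO1 target genes tested, of which 0 fell, against 1.53% of all genes that rose. Without LWT replicate 2 the list held 6 calls, and without LKO replicate 1 it held 7. G6pc, the glucose-6-phosphatase of glucose release, overlapped between the groups at 14.73 to 16.11 in LKO and 14.39 to 15.19 in LWT mice and did not pass (0.46, adjusted p = 0.124). Insr, the insulin receptor, differed by -0.14 (adjusted p = 0.193). The median over the list was 0.09, against 0.018 over all genes, so that the rises concerned a few members. Of 32 insulin signalling genes, 1 (Irs2) rose and 0 fell. Its median was 0.05.

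**Figure D3:**
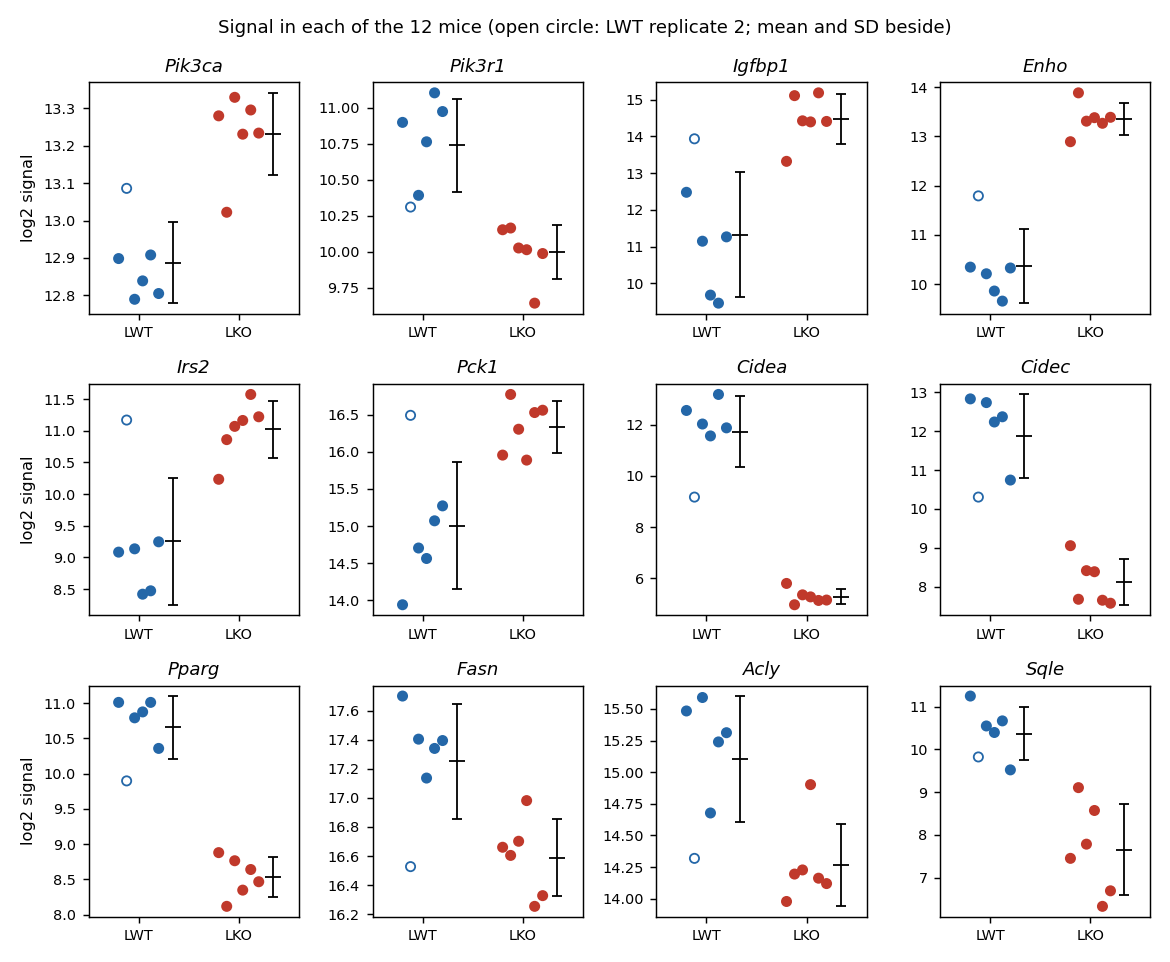
Points are the log2 signals of single genes in each of the 6 LKO and 6 LWT mice, with the mean and SD beside, and LWT replicate 2 as an open circle. LWT replicate 2 lies nearest the LKO mice of all LWT mice for Igfbp1 (13.93), Enho (11.79) and Cidea (9.18).

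Genes of fatty acid synthesis were lower in LKO livers. Of 21 lipogenesis genes, 12 fell and 0 rose (2.18% of all genes fell), 16 had a lower level by adjusted p, and the median difference was -0.71. Fasn, the fatty acid synthase, ranged from 16.25 to 16.98 in LKO mice (median 16.63) and from 16.53 to 17.70 in LWT mice (median 17.37). The groups overlapped only through LWT replicate 2, and the difference was -0.73 ± 0.20 (adjusted p = 0.0062). Acly, which makes acetyl-CoA from citrate, fell by 0.95 ± 0.16, Acss2, which makes it from acetate, by 1.13 ± 0.13, and Me1, which supplies NADPH, by 1.22 ± 0.24. The acetyl-CoA carboxylase genes Acaca and Acacb differed by -0.37 and -1.20, of which Acacb passed both thresholds. Acacb was measured by several probes, with differences from -1.20 to -0.04, and it was not called from the median over its probes.

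The largest fall of the list was that of Pnpla3, a lipid droplet acyltransferase and lipase induced by carbohydrate feeding. It ranged from 6.17 to 8.12 in LKO mice (median 7.38) and from 8.12 to 10.87 in LWT mice (median 10.18), without overlap but touching at that level, a difference of -2.75 ± 0.32 (adjusted p = 2e-08). Elovl5, an elongase of polyunsaturated fatty acids, fell by 1.02, Gpam, which starts glycerolipid synthesis, by 0.83, Thrsp, an activator of lipogenesis, by 1.09, and Aacs by 0.80. Fads2, a desaturase, differed by -0.71 on its brightest probe, and its probes ranged from -0.74 to 0.41, while those of Elovl5 ranged from -1.02 to -0.04. Mid1ip1, an activator of acetyl-CoA carboxylase, completed the 12 (-0.71), but was not called without LKO replicates 3, 5 or 6 or LWT replicates 1, 3, 4 or 5 (-0.69 to -0.54). Scd1, the stearoyl-CoA desaturase, overlapped between the groups and did not pass (-0.56, adjusted p = 0.101).

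The lipogenesis promoters were searched in the same way, with the sterol regulatory element TCACNCCAC added because it is the site of SREBP factors. It was found in 0 of 17 promoters (1.22% of all promoters held it), the E-box in 2 (11.8%; 7.24% of all) and GTAAACA in 2 (11.8%; 3.55% of all). The E-box is the core site of the carbohydrate and SREBP factors, and Elovl5 was the called gene that held it, at position -161. Its promoter lies at chr9:77917115-77917414 (GRCm38.p6, plus strand), with the E-box in capitals.
Elovl5: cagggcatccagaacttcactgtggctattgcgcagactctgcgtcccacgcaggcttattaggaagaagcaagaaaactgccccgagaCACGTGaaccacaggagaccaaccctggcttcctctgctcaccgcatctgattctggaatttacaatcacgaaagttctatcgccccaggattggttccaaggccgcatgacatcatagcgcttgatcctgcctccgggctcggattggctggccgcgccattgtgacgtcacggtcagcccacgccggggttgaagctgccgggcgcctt

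Of 17 lipogenic regulators, 3 fell and 0 rose (2.18% of all genes fell), and the median was 0.01. Pparg, which encodes the nuclear receptor PPARγ of lipid storage, ranged from 8.12 to 8.88 in LKO mice (median 8.55) and from 9.90 to 11.01 in LWT mice (median 10.83). The groups were far apart, and it fell by 2.14 ± 0.19, or 4.42-fold (adjusted p = 1.09e-11). Insig2, an ER anchor of SREBP processing, fell by 0.89. Srebf1, which encodes SREBP-1, differed by -0.70 (adjusted p = 0.0139), but was not called without LKO replicate 3 (-0.60), LKO replicate 5 (-0.59) or LKO replicate 6 (-0.59). Mlxipl, which encodes the carbohydrate sensor ChREBP, differed by -0.10, and Srebf2 by -0.12.

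Genes of cholesterol synthesis were lower at several steps. Of 23 genes, 6 fell and 0 rose (2.18% of all genes fell), 11 were lower by adjusted p, and the median was -0.49. Sqle, the squalene epoxidase, ranged from 6.33 to 9.11 in LKO mice (median 7.62) and from 9.52 to 11.25 in LWT mice (median 10.47), without overlap, a difference of -2.80 ± 0.42, or 6.98-fold (adjusted p = 3.61e-06). Fdps, which makes farnesyl diphosphate, fell by 1.80 ± 0.23, and the later enzymes Nsdhl and Dhcr7 fell by 1.44 and 0.79. Hmgcs1, the synthase that makes HMG-CoA, fell by 1.00 ± 0.18, but another of its probes gave -0.19 and it was not called from the median over its probes. Mvk, the mevalonate kinase, was the sixth call (-0.59), lost without LKO replicates 5 or 6 or LWT replicates 1, 4 or 5 (-0.56 to -0.52).

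Hmgcs1 held the sterol regulatory element, the single promoter of 15 in the list that did (6.67%; 1.22% of all promoters). It lies at chr13:119690101-119690400 (GRCm38.p6, plus strand), and the element, in capitals, began at position -137.
Hmgcs1: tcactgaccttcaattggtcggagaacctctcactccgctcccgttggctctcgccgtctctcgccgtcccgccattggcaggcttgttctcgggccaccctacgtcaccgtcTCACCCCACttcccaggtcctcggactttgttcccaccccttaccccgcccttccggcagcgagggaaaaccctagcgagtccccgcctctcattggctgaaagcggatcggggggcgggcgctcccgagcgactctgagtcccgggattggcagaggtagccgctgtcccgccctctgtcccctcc

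Lipid droplet proteins were among the largest falls of the comparison. Cidea, a protein that enlarges lipid droplets by fusing them, ranged from 4.97 to 5.81 in LKO mice (median 5.22) and from 9.18 to 13.18 in LWT mice (median 11.95). It was above background on 1 of 6 LKO arrays and all 6 LWT arrays. It fell by 6.68 ± 0.49 as measured (adjusted p = 5.63e-14), a size that rests on LKO signals at background on the other 5 arrays. Its paralogue Cidec, known as FSP27, ranged from 7.58 to 9.06 in LKO mice (median 8.03) and from 10.31 to 12.83 in LWT mice (median 12.30), a difference of -3.86 ± 0.42, or 14.5-fold. Neither gene overlapped between the groups. Without LWT replicate 2 the differences were -7.01 for Cidea and -4.09 for Cidec.

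Of 20 lipid droplet and lipase genes, 5 fell and 0 rose (2.18% of all genes fell), 14 were lower by adjusted p, and the median was -0.44. Plin4, a perilipin that coats droplets, fell by 2.68 ± 0.28, from a median of 11.99 in LWT to 9.32 in LKO mice. Fitm1, which partitions triglyceride into droplets, fell by 2.47 ± 0.18, and the carboxylesterase Ces1f by 0.68. Plin2, the main hepatocyte perilipin, differed by -0.53 (adjusted p = 0.0347), below the fold threshold.

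Cidea, Cidec and Plin4 are also adipocyte genes, and adipocyte markers were therefore set beside them. Of 5 adipocyte markers tested, Cfd and Car3 fell and the other 3 did not pass. Cfd, which encodes complement factor D, ranged from 5.08 to 6.94 in LKO mice and from 8.62 to 13.37 in LWT mice, a difference of -5.56 ± 0.64 (adjusted p = 1.73e-08), and was above background on 3 of 6 LKO arrays. Car3, which hepatocytes express too, fell by 0.81 on its brightest probe and was not called from the median over its probes (-1.42, adjusted p = 0.0637). Leptin, Plin1 and Retn differed by 0.00, -0.07 and -0.08, Plin1 was above background on 3 LKO arrays and 1 LWT array, and adiponectin did not pass the detection filter. The summed signal of the 5 markers was 70950 to 87408 in LKO and 127567 to 173500 in LWT mice, and Car3, the brightest member at 16.11 to 16.41 and 16.95 to 17.31, made up nearly all of it. The part of adipocyte RNA in the falls of Cidea, Cidec and Plin4 was not tested beyond these values.

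Of 16 genes of fatty acid uptake and binding, 3 fell and 1 rose (2.18% and 1.53% of all genes). Cd36, the fatty acid translocase, ranged from 7.65 to 8.23 in LKO mice (median 7.96) and from 9.31 to 11.03 in LWT mice (median 10.80), without overlap, a difference of -2.60 ± 0.25 (adjusted p = 1.33e-10). The fatty acid binding proteins Fabp2 and Fabp5 fell by 1.37 and 2.13. Lpl, which hydrolyses circulating triglyceride, rose by 0.70, but another of its probes gave -0.01 and it was not called from the median over its probes.

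Oxidation genes were lower by small amounts. Of 29 genes of fatty acid oxidation and ketogenesis, 2 fell and 0 rose (2.18% of all genes fell). By adjusted p alone 20 had a lower level, as did 2166 of all 20485 genes. Their median was -0.36. Pex11a, a peroxisome division factor, reached at most 14.35 in LKO mice (median 14.10) and 16.04 in LWT mice (median 15.68), without overlap, a difference of -1.57 ± 0.14, and the peroxisomal thiolase Acaa1b fell by 0.96. Cpt1a, which admits fatty acids to mitochondria, differed by -0.36 (adjusted p = 0.00528), below the fold threshold.

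Of 24 PPARα target genes, 5 fell and 0 rose (2.18% of all genes fell), and the median was -0.26. Vnn1, a pantetheinase, fell by 2.16 ± 0.22, Mogat1, a monoacylglycerol acyltransferase, by 2.72 ± 0.27, and the acyl-CoA thioesterase Acot2 by 1.30. Cyp4a12a, a fatty acid hydroxylase that is also male-biased, ranged from 10.52 to 11.59 in LKO mice and from 12.34 to 13.67 in LWT mice, a difference of -2.18 ± 0.36. Fgf21, a hormone induced by fasting, differed by -0.72 and was not called without LKO replicate 1 (-0.66), LKO replicate 2 (-0.57) or LWT replicate 3 (-0.54). Cyp4a10, Cyp4a14 and Pdk4, which PPARα induces strongly, differed by 0.01, 0.36 and -0.41 and did not pass. Of the 24 genes 17 had a negative difference. By adjusted p alone 9 were lower and 1 was higher, where 2166 of all 20485 genes were lower and 2239 higher.

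Glucose genes were called at some steps and not at others, where 2.18% of all genes fell and 1.53% rose. Of 22 glycolysis genes 1 fell: Pklr, the liver pyruvate kinase, ranged from 9.73 to 10.73 in LKO mice and from 10.59 to 11.24 in LWT mice, a difference of -0.85 ± 0.22 (adjusted p = 0.00442). Of 8 pentose phosphate genes 2 fell, Pgd, the 6-phosphogluconate dehydrogenase, by 0.78 ± 0.11 and Rpia, a ribose isomerase, by 0.69, the latter not called without LWT replicate 1 (-0.57). Of 16 glycogen genes 0 were called by limma and 10 had an unadjusted p under 0.05. Gbe1, the branching enzyme (-0.57), was called without LKO replicates 3 (-0.61), 5 (-0.60) or 6 (-0.59) or LWT replicate 2 (-0.62). Gys2, the liver glycogen synthase, differed by 0.21.

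Several secreted proteins of the liver changed in either direction. Of 30 hepatokine genes 6 rose and 3 fell (1.53% and 2.18% of all genes), with a median of 0.04. Igfbp2, an IGF-binding protein, ranged from 15.12 to 15.74 in LKO mice (median 15.34) and from 12.82 to 13.65 in LWT mice (median 13.19), without overlap, a rise of 2.21 ± 0.19, or 4.64-fold (adjusted p = 4.9e-12). Fgl1, a hepatocyte-secreted fibrinogen-like protein, rose by 1.28, follistatin (Fst), an activin antagonist, by 1.01, and Fetub by 0.72, and Igfbp1 and Enho were the other rises. Inhbe, the activin E subunit, fell by 1.04. The other 2 falls were Fgf21 and Gpnmb, and Gpnmb was called by -0.69 with 0 of 6 LKO arrays above background, at least 1.35-fold, and not without LWT replicate 5 (-0.52).

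Of 21 lipoprotein genes 2 rose and 2 fell (1.53% and 2.18% of all genes). Apoa4, an apolipoprotein of triglyceride-rich particles, ranged from 12.29 to 14.32 in LKO mice (median 13.37) and from 15.16 to 16.80 in LWT mice (median 16.20), a difference of -2.75 ± 0.44, or 6.73-fold. Pltp, the phospholipid transfer protein, fell by 1.11. Scarb1, the HDL receptor SR-BI, ranged from 12.99 to 13.20 in LKO mice (median 13.11) and from 11.97 to 12.51 in LWT mice (median 12.20), a rise of 0.92 ± 0.085 (adjusted p = 6.02e-11). Apom, an HDL apolipoprotein, rose by 0.77, whereas Apob and Apoa1 differed by -0.23 and 0.11.

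Beyond these lists, several of the changes with no overlap between groups concerned genes with varied roles. Hsd17b6, a steroid dehydrogenase, ranged from 10.08 to 10.98 in LKO mice and from 8.24 to 9.31 in LWT mice, a rise of 1.85 ± 0.16. Acmsd, which steers tryptophan breakdown away from NAD synthesis, ranged from 9.70 to 10.28 and from 7.55 to 8.72, a rise of 1.84 ± 0.23. Tff3, a trefoil peptide, varied more among LKO mice (9.77 to 12.71) than among LWT mice (8.46 to 9.65) and rose by 2.02 ± 0.57 (adjusted p = 0.00889). The vasopressin receptor gene Avpr1a rose by 1.38 ± 0.20. Tango6 rose by 2.02 on its brightest probe, but another of its probes gave -0.01.

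Among the falls, Wfdc2, a secreted protease inhibitor, ranged from 9.05 to 9.94 in LKO mice (median 9.18) and from 11.67 to 13.05 in LWT mice (median 12.31), a difference of -3.13 ± 0.22, or 8.75-fold (adjusted p = 2.76e-14). Rarres1, a retinoic acid receptor responder, ranged from 9.55 to 10.80 and from 12.28 to 13.45, a difference of -2.87 ± 0.20. Aatk, an apoptosis-associated kinase, ranged from 7.25 to 7.76 and from 9.79 to 10.72, a difference of -2.61 ± 0.14 (adjusted p = 4.72e-18), and Anxa8, an annexin, fell by 2.64 ± 0.26. These 4 genes are given as falls without overlap, so their separation of every LKO from every LWT mouse is no further result. Dct fell by 3.62 on its brightest probe, but another of its probes gave 0.07, and only that one was above background on all 48 arrays.

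Of 29 xenobiotic P450 genes 5 rose and 0 fell (1.53% of all genes rose), with a median of 0.20, and 3 were called under median scaling. Cyp2c54, Cyp2c50 and Cyp2c37, close paralogues whose probes may share targets, rose by 0.92, 0.90 and 0.80. Cyp1a2 (0.59) and Cyp3a13 (0.64) were the other calls. Cyp1a2 was not called without LKO replicates 1, 2, 4 or 6 or LWT replicates 1, 3 or 4 (0.46 to 0.58), nor Cyp3a13 without LKO replicate 5 (0.55) or LWT replicate 5 (0.58). Cyp2b10, a marker of CAR activity, differed by 0.00 and varied from 9.02 to 12.77 in LKO and from 8.96 to 13.50 in LWT mice. Of 24 male-biased genes 3 rose and 3 fell, and of 21 female-biased genes 3 rose and 2 fell (1.53% and 2.18% of all genes), with medians of -0.15 and 0.00. The male-biased paralogues Cyp4a12a and Cyp4a12b differed by -2.18 and -2.27, whereas Mup1, Mup2 and Mup3 differed by -0.14, -0.39 and -0.01. Among the other male-biased calls, Egfr, the EGF receptor, differed by 0.88 and was not called without LKO replicates 2, 3 or 5 or LWT replicates 1 or 4 (0.55 to 0.85). Cyp2d9 (-0.63) was not called without LKO replicates 3 (-0.53) or 5 (-0.54), Cyp2u1 (0.71) without LWT replicate 3 (0.58), nor Susd4 (0.68) without LWT replicates 3 (0.52) or 4 (0.58). Of the female-biased genes, Cyp39a1, an oxysterol hydroxylase, rose by 0.86 and Slc22a27 fell by 1.01. Nipal1 (0.98) was not called without LKO replicates 3, 5 or 6 or LWT replicate 6 (0.75 to 0.94), nor Ntrk2 (-0.87) without LKO replicate 2 (-0.67) or LWT replicates 3 (-0.73) or 6 (-0.78).

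Of 20 periportal genes 4 rose and 0 fell (1.53% of all genes rose), namely Pck1, Hsd17b6, Cps1 and Hal, and without LWT replicate 1 only 2 were called. Cps1, which starts the urea cycle, differed by 0.68 (0.55 without LWT replicate 1), and Hal, a histidine lyase, by 0.63 (0.58 without LWT replicate 1). Of 20 pericentral genes 2 rose and 1 fell, and the median was 0.01. Besides Cyp1a2, the amino acid carrier Slc1a4 rose by 0.81, and the fatty aldehyde dehydrogenase Aldh3a2 fell by 0.80. Of 16 gluconeogenesis genes 2 rose, Pck1 and Tat. Of 32 amino acid and urea cycle genes 3 rose, 14 were higher by adjusted p alone and the median was 0.29, but 0 were called without LWT replicate 1 and 1 under median scaling. The third call, the tyrosine aminotransferase gene Tat (0.73), was also lost without LKO replicates 2 or 6 or LWT replicates 3 or 4 (0.67 to 0.73).

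Of 23 genes of bile acid metabolism and LXR targets 1 rose, Cyp39a1, and 1 fell, Abcc3, a basolateral exporter of conjugates (-0.75 ± 0.13). Of 28 phase II enzymes 2 rose and 1 fell (1.53% and 2.18% of all genes). Nnmt, the nicotinamide N-methyltransferase, rose by 0.95 ± 0.21, and the sulfotransferase Sult1c2 fell by 0.65. Sult1d1 (0.59) was not called without LKO replicates 1, 3, 5 or 6 or LWT replicates 1 or 3 (0.51 to 0.57).

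Stress, immune and structural lists held calls for single genes, where 1.53% of all genes rose and 2.18% fell. Of 22 ER chaperone and unfolded protein response genes 0 were called by limma, 5 had an unadjusted p under 0.05 and 2 were higher by adjusted p, although all 22 differences were positive, with a median of 0.26. Hspa5, the ER chaperone BiP, differed by 0.37. Of 23 acute phase genes 2 rose and 1 fell, among them Socs3, an inhibitor of cytokine signalling, which rose by 1.13, and Apcs, which fell by 0.82. The other rise of that list, Itih3 (0.67), was not called without LKO replicate 5 (0.58). Of 23 interferon-stimulated genes 1 fell, Oasl1 by 0.93 ± 0.16, and 1 rose, Mx2 (0.60), which was not called without LKO replicates 2 or 6 or LWT replicates 3 or 5 (0.56 to 0.57). Of 31 complement and coagulation genes the 1 call was Cfd. Of 21 immediate early genes 1 rose, the AP-1 subunit Junb, by 0.80 ± 0.15. Fos, its partner in AP-1, differed by 0.77 (adjusted p = 0.0528) and was called without LKO replicates 1 or 5 or LWT replicates 1 or 4 (0.86 to 0.91).

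In 3 further lists the calls were lost in fits that left out 1 array, where 1.53% of all genes rose, 2.18% fell and 21.5% passed by adjusted p alone. Of 21 ATF4 response genes 0 rose and 2 fell, Fgf21 and the serine synthesis enzyme Psat1 (-0.60), the latter not called without LKO replicates 2, 3 or 6 or LWT replicates 1 or 4 (-0.58 to -0.53). Of 24 cell cycle genes 1 rose, Ccnd1 (0.66, adjusted p = 0.049), which was not called in 9 of 12 fits without 1 array (0.57 to 0.71), namely without LKO replicates 1, 3, 4, 5 or 6 or LWT replicates 1, 2, 5 or 6. Of 32 oxidative phosphorylation genes 1 fell, Ndufb3 (-0.59), which was not called without LKO replicates 2, 5 or 6 or LWT replicates 1, 5 or 6 (-0.58 to -0.55). Of 17 clock genes, 23 autophagy genes, 17 NRF2 and metallothionein genes, 18 collagen and matrix genes and 33 ribosomal protein genes, limma called 0 in each list. At an unadjusted p under 0.05 these lists held 2, 10, 5, 8 and 15 genes, and by adjusted p alone 1, 7, 4, 3 and 10. Col1a1, a fibrillar collagen (-0.65), was called without LKO replicate 3 (-0.84) or LWT replicates 2 (-0.77) or 6 (-0.88). It was also called with slide (-0.70) or replicate number (-0.70) as a block. Nqo1, an NRF2 target (-0.51), was called without LKO replicate 3 (-0.67) or LWT replicates 2 (-0.60), 5 (-0.59) or 6 (-0.60).

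**Figure D4:**
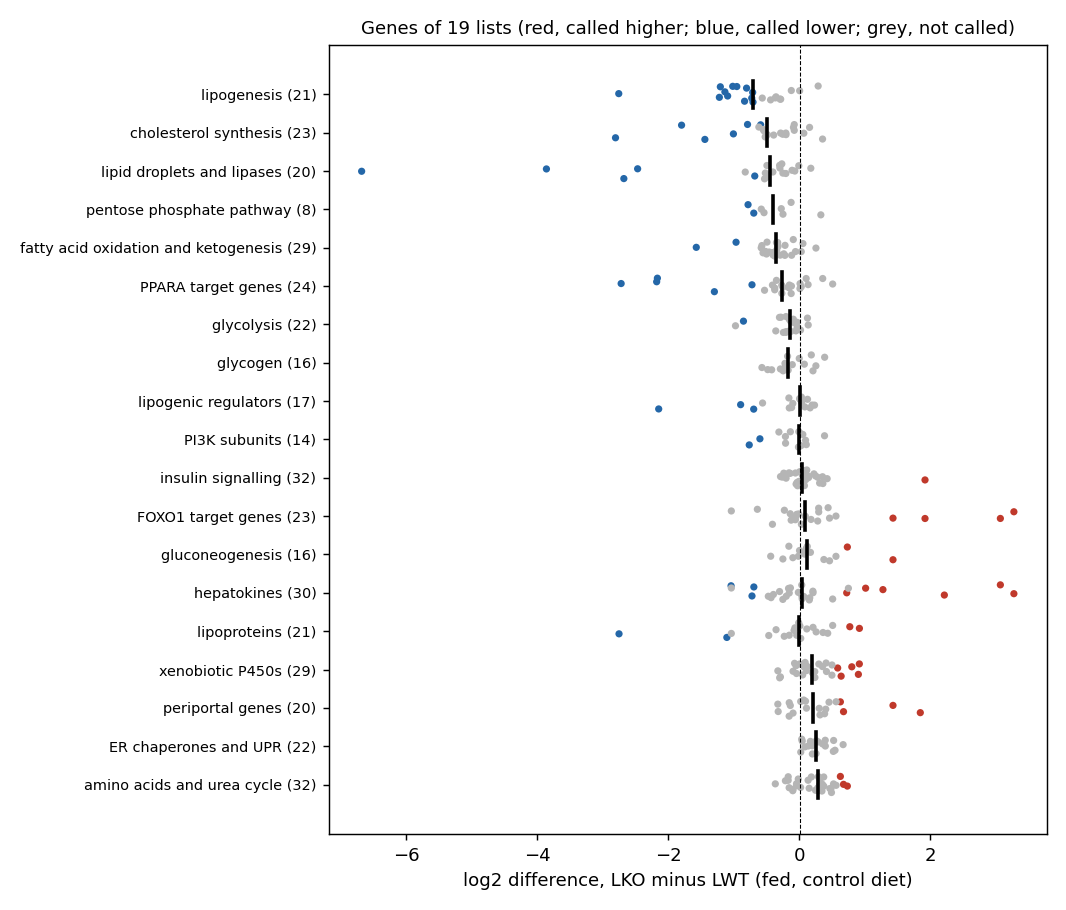
For each gene list the points are the log2 differences (LKO minus LWT) of its members, red where called higher and blue where called lower, with a bar at the median of the list. The lists of lipogenesis (median -0.71), cholesterol synthesis (-0.49) and lipid droplets (-0.44) lie furthest below the median of all genes (0.018).

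Markers of other liver cells were called in some lists and not in others, where 3.71% of all genes were called and 54.3% had a positive difference. Of 10 hepatocyte markers 1 was called, Cps1. Of 15 Kupffer cell and macrophage markers 1 was called (Gpnmb), of 12 endothelial markers 1 (Lyve1, -1.13 ± 0.23; 10 of the 12 were positive, 4 of them higher by adjusted p, with a median of 0.14), and limma called 0 of the T cell, B cell, neutrophil and erythroid markers, of which 1, 0, 0 and 1 had an unadjusted p under 0.05. All 6 T cell markers were positive, with a median of 0.32, and their summed signal was 8840 to 15930 in LKO and 7045 to 9643 in LWT mice. The summed signal of the macrophage markers was 41248 to 67448 in LKO and 40068 to 100637 in LWT mice, and that of the endothelial markers 27865 to 34243 and 23101 to 29621. Of 10 stellate cell markers 9 were positive and 3 higher by adjusted p, with a median of 0.21, and their summed signal was 53839 to 67090 in LKO and 44671 to 56941 in LWT mice. The called members were Rgs5 (0.61) and Lrat (-0.65), but Rgs5 was not called without LKO replicates 5 or 6 or LWT replicates 1 or 5 (0.53 to 0.57), nor Lrat without LKO replicate 6 (-0.52) or LWT replicate 1 (-0.57). Of 7 cholangiocyte markers all 7 had a negative difference, 3 were lower by adjusted p and 1 was called. Spp1, osteopontin, ranged from 8.71 to 9.48 in LKO mice and from 10.29 to 11.67 in LWT mice, a difference of -1.75 ± 0.18. Krt19 and Krt7, the defining cholangiocyte keratins, differed by -0.27 and -0.13, and Epcam, above background on 1 LKO and 5 LWT arrays, by -0.47 without overlap between the groups. The summed signal of these markers was 4131 to 20849 in LKO and 9899 to 19899 in LWT mice. Of 4 pancreas markers Cela2a rose by 1.24, while Ctrb1, Amy2a5 and Cela1 differed by 0.00, 0.28 and -0.45, the last with an adjusted p under the threshold but a fold change below 1.5. The part of these cells in the other differences was not tested.

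The direction of the differences was related to the response to feeding, which was taken from mice that do not enter the comparison. In LWT mice on a high fat diet (HFD), 506 genes were called higher and 458 lower in the fed than in the 24 h fasted state. Of the 506 genes higher when fed, 99 fell in LKO mice (19.6%, against 2.18% of all genes) and 6 rose (1.19%), and their median difference was -0.17. Of the 458 genes lower when fed, 128 rose in LKO mice (27.9%, against 1.53% of all genes) and 23 fell (5.02%), with a median of 0.27. The genes higher when fed and lower in LKO mice included Pnpla5, Sqle, Pnpla3 and Fdps. Those lower when fed and higher in LKO mice included Igfbp2, Irs2, Pck1, Fgl1 and Socs3. The 2 classes held 99 of the 447 falls (22.1%) and 128 of the 314 rises (40.8%) in these opposite directions, so that most calls fell outside them.

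Each mouse was also placed by the mean level of these classes, relative to the mean of the 12 mice. The genes higher when fed averaged -0.12 ± 0.099 (SD, n = 6) in LKO mice and 0.12 ± 0.16 (SD, n = 6) in LWT mice (exact permutation test, two-sided, p = 0.0108; adjusted over 2 tests, 0.0173). The genes lower when fed averaged 0.10 ± 0.036 in LKO mice and -0.10 ± 0.18 in LWT mice (exact permutation test, two-sided, p = 0.0173; adjusted, 0.0173). LWT replicate 2 had values of -0.12 and 0.19, on the LKO side for both classes, where the other LWT mice had 0.070 to 0.31 and -0.31 to -0.042. Over all genes of each class the groups thus overlapped through LWT replicate 2. Over the genes of each class that were not called in this comparison the values for genes higher when fed were -0.16 to 0.082 in LKO and -0.12 to 0.18 in LWT mice. Those for genes lower when fed were -0.037 to 0.12 and -0.16 to 0.12. Genes with small differences are left by that choice, so it cannot show where in a class the shift lies. Without LWT replicate 2, 113 of the 508 genes higher when fed fell and 136 of the 456 genes lower when fed rose.

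The same genes were then followed in mice that share no array with this comparison. Of the 314 rises, 296 had a positive difference (94.3%) and 98 were called higher (31.2%) in 24 h fasted LKO mice on the same diet, and 300 (95.5%) and 221 (70.4%) in fed LKO mice on HFD. Of the 447 falls, 414 had a negative difference (92.6%) and 205 were called lower (45.9%) in the fasted mice, and 434 (97.1%) and 303 (67.8%) in the HFD mice. Those comparisons called 663 genes (3.24%) and 1278 genes (6.24%) in all. In the other direction the shares were 35.9% of 273 genes called higher and 52.6% of 390 called lower in the fasted mice, and 49.0% of 451 and 36.6% of 827 in the HFD mice. Without LWT replicate 2, 98 rises and 219 falls were called in the fasted mice, and 232 and 336 in the HFD mice. Called in the same direction in all 3 comparisons were 71 rises and 165 falls. Enho differed by 3.07 in the fed control-diet mice, 2.76 in the fasted mice and 2.66 in the fed HFD mice. Cidea differed by -6.68, -5.83 and -7.24 in the same order, and Cfd by -5.56, -5.45 and -4.11.

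**Figure D5:**
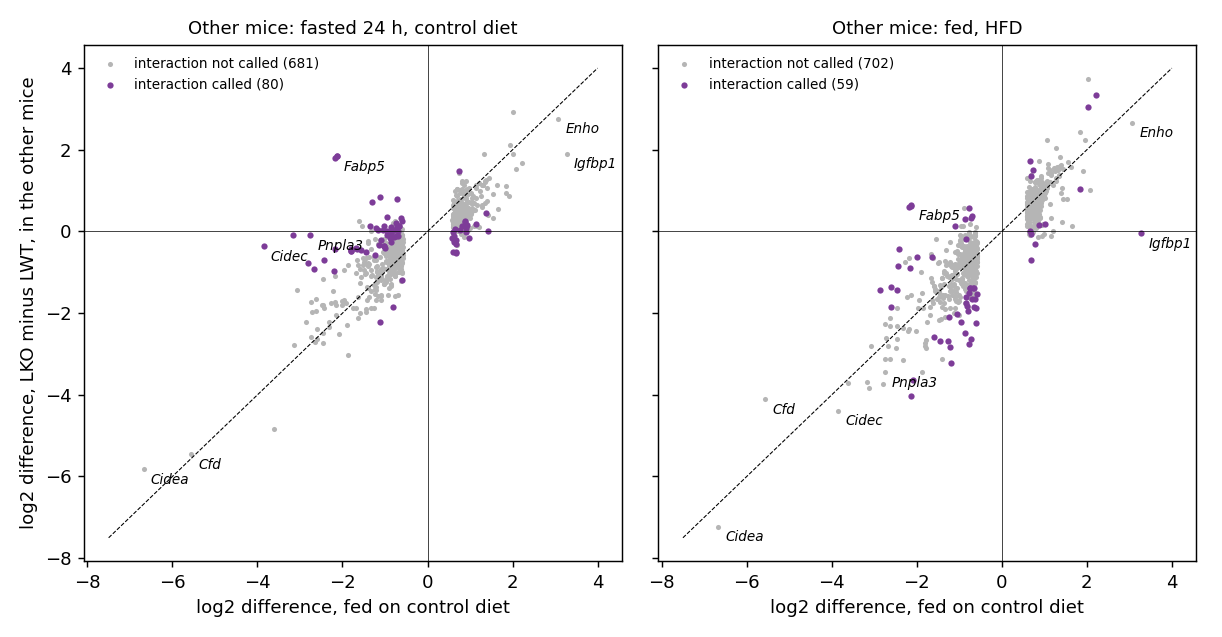
Each point is a gene called in fed mice on control diet, with its log2 difference (LKO minus LWT) there against that in fasted mice on control diet and in fed mice on HFD. Most points share the sign, 94.3% of rises and 92.6% of falls in fasted mice, and 95.5% and 97.1% in HFD mice.

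Some effects depended on the nutritional state. The interaction of genotype and state on control diet, which uses the same 12 arrays together with 12 of fasted mice, was called for 269 genes (1.31%), 141 positive and 128 negative, and for 80 of the 761 genes. It was called for 162 genes without a detection filter and 164 without array weights. The droplet and lipogenic genes Cidec, Pnpla3 and Pnpla5 differed by -3.86, -2.75 and -3.16 in fed mice and by -0.36, -0.09 and -0.08 in fasted mice, with interactions of -3.49 ± 0.59, -2.66 ± 0.45 and -3.08 ± 0.45. Fabp5 fell by 2.13 in fed mice and was higher by 1.84 in fasted mice, and Pdk4, the pyruvate dehydrogenase kinase, differed by -0.41 and 2.39. Pck1 rose by 1.43 in fed mice and differed by 0.02 in fasted mice (interaction 1.41 ± 0.29, adjusted p = 0.0036), and Scarb1 by 0.92 and 0.16 (interaction 0.75 ± 0.12). Each of these interactions was called in all 12 fits that left out 1 array. The median of the PPARα target genes was -0.26 in fed and 0.40 in fasted mice, and 8 of its 24 genes were called for the interaction. That of the ER chaperones was 0.26 and -0.21, and its interaction was not called for any gene by limma.

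Others depended on the diet. The interaction of genotype and diet in fed mice was called for 275 genes (1.34%), 212 positive and 63 negative, and for 59 of the 761 genes. It was called for 170 genes without LKO replicate 5, 177 without LKO replicate 3, 145 without a detection filter and 160 without array weights. The diet interaction was called for 9 of the 21 lipogenesis genes. Fasn differed on control diet and HFD by -0.73 and -2.63 (interaction 1.90 ± 0.28), Acly by -0.95 and -2.20 (1.25 ± 0.23), and Me1 by -1.22 and -2.82 (1.61 ± 0.33). Scd1, which did not pass on control diet (-0.56), differed by -2.68 on HFD (interaction 2.11 ± 0.35). The median over the lipogenesis list was -0.71 on control diet and -1.60 on HFD, and that over cholesterol synthesis -0.49 and -1.02. Igfbp1 rose by 3.27 on control diet and differed by -0.04 on HFD (interaction 3.32 ± 0.65, adjusted p = 0.0023), whereas Igfbp2 rose by 2.21 and 3.34 (interaction -1.13 ± 0.26). The largest positive interaction was that of Hamp2, a hepcidin gene, which differed by 0.75 on control diet (adjusted p = 0.581) and by -5.87 on HFD. Each of these interactions was called in all 12 fits that left out 1 array.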

How the data were processed

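Liver RNA of 48 male mice, 6 in each of 8 groups of genotype, diet and nutritional state, was hybridised by the authors to one-colour Agilent arrays, and images were read with Agilent Feature Extraction 10.10.1.1 per the submitters' processing notes. The deposited scanner files hold median signal intensity, processed signal intensity and flags (outlier, above background, control) of 62976 spots. The authors also deposited a table of normalised log2 values, which served as an alternative.

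From the median intensity of 59305 spots that were not controls, outlier spots were left out, log2 was taken, spots of a probe were averaged, and probes were kept if well above background on at least 5 of 6 arrays of 1 group. The washing batch (2 batches of 3 slides) was removed with groups protected, and arrays were quantile-normalised, as in the study's methods. limma 3.58.1 (R 4.3.3, statmod 1.5.0) with array weights was fitted to the 48 arrays, 1 coefficient per group, and p-values were adjusted by the Benjamini-Hochberg method. Of 56605 probes 30792 were tested, and the brightest probe stood for each of 20485 genes. Called genes had a fold change above 1.5 with an adjusted p no higher than 0.05. The script was tested on simulated data. Probe positions are those of mm9, as the scanner files give them.

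Named genes were the PI3K subunits, the 12 largest rises and 12 largest falls without overlap between groups, leaving out clone and locus symbols, the called and first 3 members of each gene list, the 6 largest positive and negative called interactions, and the 5 lowest p in each direction. Ccng2, Sesn1, Plin2 and the remaining adipocyte and pancreas markers were named after their values were seen. The 48 lists hold 884 distinct genes, of which 842 were tested, 6 of them matched by an older or newer symbol. The comparison, lists and named genes were chosen with earlier results of these data known, so counts over a list are descriptions. Alternatives changed the signal, background correction, scaling, filter, probe choice, weights, batch handling, threshold and arrays. The number of arrays limits the precision, and no depth applies to arrays. Some items are not reported here.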

Additional observations from a re-analysis of the deposited data

Results flagged for a closer look

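In 122 groups of 6 mice, 2 for each of 60 genes and 2 for the first principal component, 14 held a mouse whose gap to its nearest neighbour, as a share of the range of the group, was above Dixon's critical value, where chance gives about 1 in 20. Some of these concerned LWT replicate 2, for Enho (11.79), Mogat1 (8.02) and Pik3r4 (9.06), but it did not pass on the first principal component. LKO replicate 2 stood apart for Igfbp2 (15.74), Pik3ca (13.02) and Rad51b (10.76), LKO replicate 1 for Car1 (9.22) and Ptgds (7.65), LKO replicate 5 for Pik3r1 (9.64) and Pik3r5 (6.26), and LKO replicate 3 for Pde6c (9.63). LWT replicate 4 stood apart for Dct (10.69) and Pik3cg (6.62), and LWT replicate 1 for Pik3cb (9.05).

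The effect of genotype differed between fed and fasted mice on control diet, by a called interaction, for 17 of the 60 genes examined here, given here as the fed minus the fasted difference. It was negative for Fabp5 (-3.98), Cidec (-3.49), Rad51b (-3.33), Pnpla5 (-3.08), Pdk4 (-2.80), Pnpla3 (-2.66), Plin4 (-1.77) and Agpat9 (-1.73). It was positive for Arl4d (1.60), Pck1 (1.41), Car1 (1.19), Rnd1 (1.15) and Scarb1 (0.75). These 13 were called in all 12 fits that left out 1 array. Sqle (-2.04) was not called without LWT replicates 1, 3, 4 or 5 or LKO replicates 3, 5 or 6 (all fits, -2.28 to -1.73). Avpr1a (0.94) was not called without LWT replicates 1, 3, 5 or 6 or LKO replicates 3, 5 or 6 (0.84 to 1.05). Clec2h (1.70) was not called without LWT replicates 1, 3, 4 or 5 or LKO replicates 1, 3, 4, 5 or 6 (1.47 to 1.88), and Slc22a7 (1.59) without LWT replicates 1, 4 or 5 or LKO replicate 4 (1.41 to 1.83).

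Between control diet and HFD in fed mice the effect of genotype differed for 16 of those 60 genes, given as control diet minus HFD. It was positive for Hamp2 (6.62), Igfbp1 (3.32), Sdcbp2 (2.25), H2-Q1 (2.21) and Scd1 (2.11) and negative for Fabp5 (-2.78), Agpat9 (-1.99), Rarres1 (-1.43), Igfbp2 (-1.13) and Tango6 (-1.02), all 10 called in the 12 fits that left out 1 array. Rgs16 (2.44) was not called without LKO replicate 5 (2.24). Pax2 (-2.11; -2.33 to -1.83) and Mup11 (-1.41; -1.56 to -1.20) were not called without LWT replicates 5 or 6 or LKO replicates 3, 5 or 6. Slc35f2 (-1.60) was not called without LWT replicates 1, 3, 4 or 5 or LKO replicates 3, 5 or 6 (-1.86 to -1.40). Aatk (-0.75) was not called without LWT replicates 5 or 6 or LKO replicates 3 or 5 (-0.83 to -0.64), and Hsd17b6 (0.82) without LWT replicates 3, 5 or 6 or LKO replicates 3, 5 or 6 (0.66 to 0.91).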

How the results depend on the processing

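Against 761 called genes (314 higher, 447 lower), 269 called for the interaction with state (141 positive, 128 negative) and 275 for that with diet (212 positive, 63 negative), fits without 1 array called 658 to 873 (281 to 358, 377 to 515), 206 to 369 (100 to 202, 106 to 167) and 170 to 329 (136 to 256, 33 to 77). The lowest diet counts came without LKO replicate 5 (170) or 3 (177) and the highest main count without LWT replicate 2. The cause was not tested. The processed signal scaled to the 75th percentile, a change of signal and scaling together, called 1205 (548 higher). Without a detection filter the interactions fell to 162 (70 positive) and 145 (114 and 31), and without array weights to 164 (80 and 84) and 160 (128 and 32). Adjusted p alone called 4405 (2239 and 2166), 803 (450 and 353) and 579 (383 and 196), and a fold above 2 called 218 (61 and 157). Washing batch 1 alone called 502 (209 and 293) and batch 2 alone 728, both with fewer arrays. The other called counts were 654 with normexp (649 shared), 761 with the authors' log2 values (758 shared), 717 with the 12 arrays alone (696 shared), 636 from the median over probes (628 shared) and 761 with slide as a block (746 shared). The median of all genes (0.018) was -0.004 with median scaling and 0.034 with that processed signal. Dct reversed to 0.0743 on probes above background on all arrays, and Cyp2u1 to -0.175 (median over probes). Of 116 named called genes, 82 kept their call in all 28 settings that kept the thresholds and both washing batches. Replicate numbers share only a number (same-number correlations -0.23 to 0.09), and the replicate block called 770 (748 shared), 248 and 202. Probes below background in a group give bounds only.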
